A study of Mus musculus with 3 samples.

Results

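Dividing pre-B cells were selected from single-cell libraries of mouse intervertebral disc preparations by 8 marker genes. The matrices count unique molecular identifiers (UMIs), each standing for 1 captured transcript, per gene and cell barcode. A barcode was kept with at least 500 genes and at most 15% mitochondrial UMIs. A member had at least 1 UMI of Cd79a and of Cd79b, the signalling chains of the B cell receptor, and no UMI of Dntt, the terminal transferase of pro-B cells, or of Ms4a1, which encodes CD20 of later B cells. It also had a UMI of at least 2 of the 4 division genes Mki67, Top2a, Birc5 and Ccna2. Of 26898 kept barcodes, 2097 met this rule, which are 274, 879 and 944 in libraries 1, 2 and 3.

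All 3 libraries form 1 group of untreated shh-cre:R26R-tdTomato mice at postnatal day 30, each library being a pool of cells from litter mates. In these mice Cre driven from the Shh gene switches on a red reporter in cells that express Shh and in their descendants, and tdTomato-positive cells were enriched by sorting before 10x Genomics 3' sequencing. Shh had 0 UMIs in the members, and the reporter itself was not analysed here. Discs were cut out through the bony endplates and digested with collagenase, per the labels. There is no second condition, so each comparison is between cell sets of the same libraries, and p-values measure the spread between 3 pools, which the labels also call sequencing batches.

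Large pre-B cells are bone marrow B cell precursors that have joined an immunoglobulin heavy chain gene and divide. Their heavy chain pairs with a surrogate light chain, built from Vpreb1 or Vpreb2 and Igll1, into a pre-B receptor that signals through Cd79a and Cd79b. With interleukin-7 this receptor drives division, after which the cells stop cycling as small pre-B cells, raise Rag1 and Rag2 again and join a light chain gene, usually kappa.

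The label of large pre-B cells was held against genes the rule did not use. All 7 genes of a B lineage list, among them Ebf1, Pax5, Vpreb3, Fcrla, Blnk and Pou2af1, were found, with a summed level of 3137 ± 345 CPM (UMIs per 1000000 UMIs of the cell set, mean ± SD, n = 3 libraries). A list of 12 neutrophil granule genes, from Elane to S100a9, summed to 49655 ± 5320 CPM in the same barcodes. The 9 genes of an erythroid list summed to 210, 19270 and 6925 CPM in libraries 1, 2 and 3. Every gene of all 13 marker lists had a UMI in the pooled members, so being found does not by itself mark a lineage. On inspection of single barcodes, 151 members had fewer than 5 UMIs over 5 B markers, among them Ebf1, Vpreb3, Pax5 and Fcrla, and 274 had at least 10 UMIs over 6 primary granule genes. The limits on late granule genes and on erythroid genes marked 188 and 105 members. Haemoglobin genes gave at least 2% of UMIs in 86 members, and 9 members held at least 10 UMIs of Jchain, a plasma cell gene. In all, 415 of 2097 members (19.8%) lacked the B markers or carried markers of another lineage.

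The remaining 1682 members, 231, 702 and 749 by library, are called B-restricted, a choice made after the data were seen, and list counts are given for them where they differ from those by the rule. Their neutrophil list fell to 1122 ± 317 CPM and their B lineage list stood at 4517 CPM. The limits were set on B marker and granule genes, so both shifts follow from the choice. Levels of the B markers in B-restricted sets, and list counts that include these markers, are likewise partly set by it. Members outside had a median of 27957, 26353 and 28886 UMIs in libraries 1, 2 and 3, against 6670, 7966.5 and 8035 for B-restricted members, over the genes shared by the libraries. Scrublet, a doublet caller, marked 27, 144 and 146 members by the rule and 10, 26 and 42 B-restricted members. The part of doublets or of free RNA in these barcodes was not tested.

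**Figure D1:**
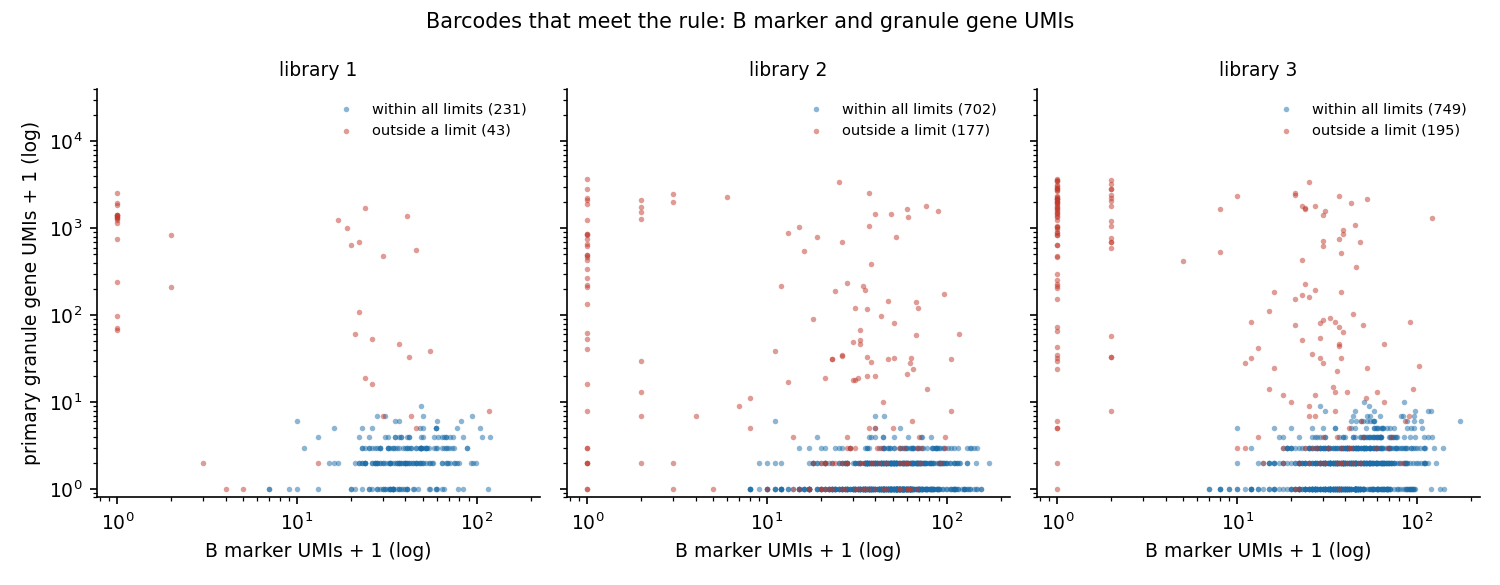
UMIs of the primary granule genes (y axis, UMIs + 1, log scale) against UMIs of the 5 B markers (x axis, UMIs + 1, log scale) for each member of each library, coloured by whether it is B-restricted. The 1682 B-restricted members lie at low granule gene UMIs, as the limits require. The 415 others include members with high granule UMIs and members at the left with few B markers. They also include members low in granule UMIs that exceeded an erythroid, late granule or Jchain limit.

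In the scatter of granule against B marker UMIs, granule-rich members appear both with few and with many B marker UMIs. Of the 274 members rich in primary granule transcripts, 128 lacked the B markers and 146 had both kinds. Median primary granule UMIs outside were 482, 16 and 153 by library, against 1, 0 and 1 within, where the limit kept them under 10.

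Large pre-B cells use a surrogate light chain in their pre-B receptor, and its transcripts were seen in only part of the cells. Of B-restricted members, 42.6% ± 10.4 (SD, n = 3) had a UMI of Igll1 and 44.7% ± 8.66 of Vpreb1, while 92.2% ± 2.53 had a UMI of Igkc, the kappa light chain constant region. With each barcode thinned to 2000 UMIs, the shares were 24.6% for Igll1, 25.8% for Vpreb1 and 75.7% for Igkc. The surrogate light chain genes were not particular to this set. In B-restricted dividing cells with a UMI of Dntt, thinned shares were 87.3% for Igll1 and 89.5% for Vpreb1. In dividing neutrophil precursors, which should lack these genes, thinned shares were 0.390%, 0.167% and 1.19%. Their median depth before thinning was 20409.5, 21870.5 and 19935.5 UMIs in libraries 1, 2 and 3. These precursors were chosen with no UMI of Cd79a or Cd79b, which leaves out part of any stray B cell RNA. Their shares are thus no full measure of background. Ighm was found in 10.3% of them after thinning, against 96.8% of B-restricted members. With surrogate light chain UMIs in part of the members and Igkc in most, the set is called dividing pre-B cells here, after its rule, rather than large pre-B cells.

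Libraries held 64695292 to 145925353 UMIs, and members had a median of 7887, 9679 and 11557 UMIs in libraries 1, 2 and 3. At the edge of the rule, 21, 86 and 61 members had a UMI of exactly 2 division genes, with medians of 5024, 6401 and 4647 UMIs. Just outside it, 269 barcodes had exactly 1 of the 4 and medians of 2541, 2886 and 2398.5 UMIs. Having 0 of the 4 defined 2043 non-dividing pre-B cells (351, 744 and 948), whose medians of 2144, 2511.5 and 2027 UMIs were lower again. Pairs of libraries shared 16, 22 and 34 kept barcode sequences and no member.

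Members made up 4.78% (95% exact binomial interval 4.24 to 5.36) of kept barcodes in library 1, 8.14% (7.64 to 8.68) in library 2 and 9.10% (8.55 to 9.67) in library 3. These intervals cover counting error only. Library 1 was lowest and its interval did not overlap the other two, and the mean was 7.34% ± 2.27 (SD, n = 3). Among barcodes with both Cd79a and Cd79b the shares were closer, 26.8%, 29.5% and 25.4%, with a mean of 27.2% ± 2.09. The B-restricted members were 5.92% ± 1.67 of kept barcodes.

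Promoters of the pre-B receptor genes Igll1, Vpreb1 and Vpreb3 are shown because all of these genes differed between dividing and non-dividing pre-B cells, and Igll1 and Vpreb1 also between dividing pre-B and dividing Dntt cells. Sequences are RefSeq's for GRCm38.p6, 5' to 3' on the gene's strand, from 250 bases before to 50 after the start. Capitals mark the E-box CAGNTG and the octamer ATTTGCAT on either strand. E-boxes are the motif of E2A, and the octamer that of Oct factors.
Igll1, chr16:16863936-16864235, minus strand: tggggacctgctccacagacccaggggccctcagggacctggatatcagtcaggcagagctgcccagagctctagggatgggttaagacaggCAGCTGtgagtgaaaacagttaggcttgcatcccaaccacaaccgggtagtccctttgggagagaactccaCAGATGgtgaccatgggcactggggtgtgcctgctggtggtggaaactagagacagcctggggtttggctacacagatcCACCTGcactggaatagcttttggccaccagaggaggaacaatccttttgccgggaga
Vpreb1, chr16:16869206-16869505, minus strand: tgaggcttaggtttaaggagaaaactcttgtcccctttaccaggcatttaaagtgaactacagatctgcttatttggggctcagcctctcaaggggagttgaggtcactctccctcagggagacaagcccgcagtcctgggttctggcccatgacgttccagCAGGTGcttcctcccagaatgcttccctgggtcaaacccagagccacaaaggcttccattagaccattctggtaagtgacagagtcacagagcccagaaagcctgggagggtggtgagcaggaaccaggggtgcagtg
Vpreb3, chr10:75948050-75948349, plus strand: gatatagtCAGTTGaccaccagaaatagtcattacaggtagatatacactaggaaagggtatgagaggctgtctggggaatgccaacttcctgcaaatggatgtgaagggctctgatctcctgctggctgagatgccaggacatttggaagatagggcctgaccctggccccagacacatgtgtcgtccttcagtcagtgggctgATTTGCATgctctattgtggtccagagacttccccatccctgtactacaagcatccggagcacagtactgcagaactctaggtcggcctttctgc

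Igll1 held 3 E-box matches, Vpreb1 held 1, and Vpreb3 held 1 with 1 octamer. Of 32544 promoters of the same length, 51.5% held an E-box and 1.75% an octamer. A match says only that these letters occur there. In mm10 Igll1 spans chr16:16860671-16863985, next to Vpreb1, while Ighm (chr12:113418558-113422730) and Igkc (chr6:70726435-70726966) are constant region genes at the heavy and kappa loci.

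The first comparison is with non-dividing pre-B cells, under the same limits on Cd79a, Cd79b, Dntt and Ms4a1. It asks what besides the division genes differs between dividing and resting cells. Levels of B genes were not matched. The B lineage list summed to 3137 CPM in dividing and 9721 CPM in non-dividing cells, and to 4517 and 11281 CPM in B-restricted sets. The part of this offset in the list results below was not tested. Surrogate light chain transcripts were higher in the dividing cells, while heavy chain, kappa chain and recombinase transcripts were lower. Sums of UMIs per library and set were tested with edgeR, with the library as a block. Of 10238 genes, 56.9% were called at adjusted p under 0.05, 27.3% higher and 29.6% lower, with a median log2 fold change of -0.08. In B-restricted sets 59.6% of 9426 genes were called, 28.5% higher and 31% lower, and without the block 3679 genes were called in place of 5830. Counts for single lists are read against these shares.

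Igll1, the lambda-like chain of the surrogate light chain, stood at 216, 223 and 396 CPM in dividing cells of libraries 1, 2 and 3, against 73.9, 47.7 and 91.8 in non-dividing cells. Every dividing value lay above every non-dividing value, with a log2 fold change ± SE of 2.12 ± 0.14 (edgeR adjusted p = 8.82e-06). Applying the rule after thinning each barcode to 2000 UMIs brings the depth of the sets closer and gave 0.69. The limits on Dntt, Ms4a1 and the division genes then also act on fewer UMIs, so cells can move between sets. Dividing Dntt cells, for instance, numbered 26, 98 and 102 by library under it, against 76, 301 and 358. Values under the thinned rule thus mix depth with changed membership, and the part of each was not tested. Vpreb1, its partner, was at 227, 247 and 287 CPM against 172, 85.2 and 143, again with no overlap, and differed by 1.12 ± 0.18 (edgeR adjusted p = 9.46e-04). The thinned rule gave 0.25 (adjusted p = 0.0417). Vpreb2, a near copy of Vpreb1 with 97.4% of 759 aligned transcript bases identical, was at 33.8, 25.6 and 47.5 against 17.1, 6.93 and 27.4 CPM, ranges that overlap, and the division of reads between these copies is uncertain. Its call was lost without the block (adjusted p = 0.0637), and it was -0.14 under the thinned rule.

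Ighm, the mu heavy chain, was lower in dividing cells, at 1794, 1272 and 1279.5 CPM against 5281, 3434 and 4440.2. Its difference was -1.46 ± 0.10 (edgeR adjusted p = 9.29e-06), and -0.64 with the thinned rule. Vpreb3, which binds newly made light chains, was likewise lower, at 1295, 1478 and 1082 against 3369, 3656 and 3685 CPM, a change of -1.35 ± 0.11 (edgeR adjusted p = 2.68e-05). For both genes every library of the dividing set lay below every library of the other. Of the 5 pre-B receptor genes 3 were thus higher and 2 lower, and the same held in B-restricted sets.

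**Figure D2:**
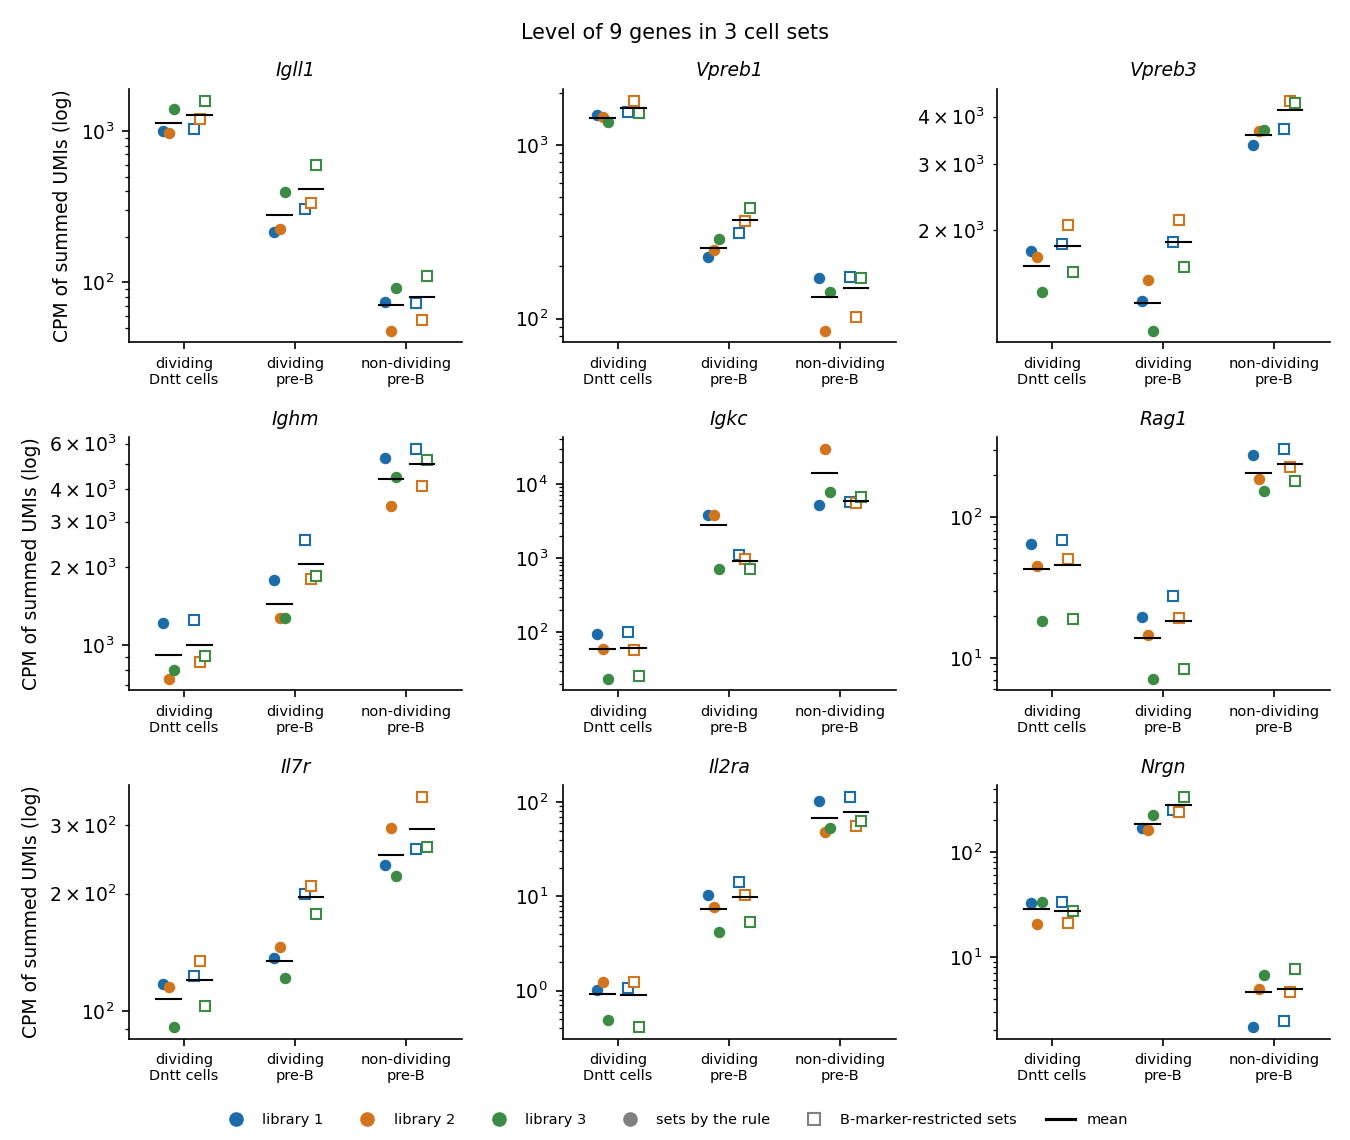
Level of 9 genes (CPM of summed UMIs, log scale) in dividing pre-B cells, non-dividing pre-B cells and dividing Dntt cells, 1 point per library, circles for sets by the rule and squares for B-restricted sets, bars for means. Igll1 and Vpreb1 step down from dividing Dntt cells over dividing to non-dividing pre-B cells, while Ighm and Rag1 are highest in non-dividing cells.

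Igkc was at 3756, 3795 and 708 CPM in dividing cells and 5159, 29964 and 7682 in non-dividing cells. The ranges did not overlap, library 2 of the non-dividing set was far above the rest, and the difference was -2.22 ± 0.52 (edgeR adjusted p = 0.00632). It was not called without library 3 (adjusted p = 0.0671) or without the block (0.0620). In B-restricted sets Igkc was at 927 ± 196 against 5942 ± 586 CPM, a log2 fold change of -2.53 with adjusted p = 4.52e-08. The lambda constant genes Iglc2 and Iglc3 changed by -4.44 and -5.30 on the log2 scale. These are similar in sequence, so the division of reads between them is uncertain.

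Rag1, which cuts DNA at recombination signals, was at 19.5, 14.5 and 7.07 CPM in dividing and 277, 188 and 153 in non-dividing cells. The change was -3.85 ± 0.16 (edgeR adjusted p = 1.49e-06), and -2.48 under the thinned rule. Rag2, its partner, was at 11.5, 7.27 and 5.20 against 21.4, 13.5 and 18.5 CPM and changed by -1.11 ± 0.26 (edgeR adjusted p = 0.00627), a call lost without library 3 (adjusted p = 0.0736) and under the thinned rule (0.945). The 2 members called higher were Hmgb1, a DNA-bending cofactor (2.05), and Xrcc5, the Ku80 end-joining protein (1.44, lost under the thinned rule with adjusted p = 0.0638). Of 16 recombination and light chain genes tested, 2 were higher and 9 lower, with a list median of -1.16 against -0.08 for all genes, and 3 were higher in B-restricted sets.

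Signalling genes downstream of the receptor were lower or not called. Of 15, none was called higher and 11 lower, with a median of -0.79, and in B-restricted sets 1 was higher and 11 lower. Syk, the kinase that docks on Cd79a and Cd79b, fell from 467, 344 and 325 CPM in non-dividing cells to 163, 113 and 81.9 in dividing cells, a change of -1.57 ± 0.13 (edgeR adjusted p = 2.48e-05). Pik3ap1, a PI3-kinase adaptor, changed by -1.39 ± 0.12, a call lost without the block (adjusted p = 0.102).

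Il7r, the interleukin-7 receptor chain, was at 137, 146 and 121 CPM in dividing and 237, 295 and 222 in non-dividing cells, without overlap. The change was -0.77 ± 0.11 (edgeR adjusted p = 4.69e-04), but -0.41 in B-restricted sets and 0.02 under the thinned rule. Of 16 tested genes of interleukin-7 receptor, STAT5 and survival function, 2 were higher and 10 lower, with a median of -0.83, and 3 were higher in B-restricted sets. Lower members were the pro-apoptotic Bmf (-3.36), the kinase Pim2 (-2.67) and the shared receptor chain Il2rg (-1.96). Higher were Myc (1.13 ± 0.29), a growth regulator, and Jak3 (0.91 ± 0.33), which binds Il2rg. Myc lost its call without library 3 (adjusted p = 0.0821), without the block (0.146) and under the thinned rule (0.876), and Jak3 did so without any 1 of the libraries.

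Of 26 B lineage transcription factors tested, 1 was higher and 20 lower, with a median of -1.02, and the counts were 1 and 20 of 24 in B-restricted sets. Foxo1, which switches on the Rag genes and Il7r, was at 36.9, 23.2 and 20.2 CPM against 178, 99.9 and 114, every dividing value below every other, a change of -2.16 ± 0.12 (edgeR adjusted p = 4.10e-06). Ikzf3 (Aiolos), a factor of the small pre-B stage, changed by -2.14 ± 0.12, and Spib by -2.05 ± 0.15. The exception was Lef1, a Wnt pathway factor of early B cells, at 74.8, 49.2 and 59.9 against 54.6, 33.8 and 33.7 CPM. Its change was 0.75 ± 0.13 (edgeR adjusted p = 0.00143), no longer called under the thinned rule (0.0572).

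Of 22 surface genes tested, 4 were higher and 12 lower, with a median of -0.72, and in B-restricted sets 3 were higher and 14 lower of 21. Enpep (BP-1), a peptidase of early pre-B cells, was at 11.5, 8.01 and 8.93 CPM against 7.50, 2.04 and 1.68 and was higher by 1.78 ± 0.38. Spn (CD43), kept on pro-B and early pre-B cells, was higher by 1.13 ± 0.15 and the stem cell factor receptor Kit by 2.00 ± 0.54. Kit lost its call without library 3 (adjusted p = 0.0885) and without the block (0.0816). It was too low to be tested in B-restricted sets, where it averaged 1.13 ± 0.876 CPM in dividing and 3.41 ± 5.47 in non-dividing cells. Lower were Ly6d, a B lineage surface protein, at 151, 165 and 121 against 1891, 2113 and 2499 CPM, and Cd2 (-3.49). Il2ra (CD25), a marker of small pre-B cells, was at 10.3, 7.72 and 4.24 against 104, 48.1 and 53.1 CPM, a change of -3.04 ± 0.20 (edgeR adjusted p = 7.88e-06). Of 13 genes of later B cells 10 were lower and none higher, with a median of -1.67; Cd40 changed by -3.99 ± 0.29 and Ltb by -3.72 ± 0.22.

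All 43 tested replication genes and all 52 mitosis genes were higher in dividing cells. The rule used division genes, so this is a description. Replication genes gave 0.520% of UMIs in dividing pre-B cells, 0.0807% in non-dividing ones, 0.547% in dividing Dntt cells and 0.257% in dividing neutrophil precursors. Mitosis genes gave 1.40%, 0.175%, 1.40% and 0.939% in the same order. In B-restricted sets the replication share was 0.609% ± 0.0198 in dividing pre-B and 0.573% ± 0.0196 in dividing Dntt cells, and the mitosis share 1.67% ± 0.158 and 1.47% ± 0.146. Of 23 G1 regulators, 14 were higher and 6 lower. Ccnd3, the cyclin D on which pre-B cell division depends, was at 321, 454 and 560.0 against 197, 234 and 289 CPM, a change of 1.01 ± 0.11 (edgeR adjusted p = 1.24e-04). The cyclin E genes Ccne1 and Ccne2 were higher by 4.45 and 4.51. Anti-proliferative Btg1 was at 405, 191 and 177 against 2228, 1264 and 1421 CPM, and the CDK inhibitor Cdkn1b changed by -1.83 ± 0.13.

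Most genes of the growth and biosynthesis lists were higher as well. Nucleotide and one-carbon synthesis had 19 of 21 genes higher and none lower, with a median of 2.16, led by Shmt1 (3.73), Dut (3.66) and Tk1 (3.59). Ribosome biogenesis and MYC-type growth genes were 21 of 22 higher, with a median of 1.25, including the polyamine enzyme Srm (2.73) and the transport GTPase Ran (2.53). Nuclear-encoded respiration was higher in 22 of 24 genes, by a smaller median of 0.62, with Ndufa4 (1.29) and Cox5a (1.21) among them. Chromatin, histone variant and tubulin genes were 14 of 15 higher and 1 lower, with Stmn1 at 1848, 2154 and 2053 against 179.9, 174 and 142 CPM and Lmnb1, of the nuclear lamina, higher by 2.40. In B-restricted sets 20 nucleotide and 23 respiration genes were higher.

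Glycolysis was less even. Of 17 genes 12 were higher and 1 lower, with a median of 0.85, but under the thinned rule 5 were higher and 4 lower, with a median of -0.06, and in B-restricted sets 10 were higher and 1 lower of 16. Gapdh was at 1387, 1349 and 2111 CPM against 621, 538 and 602 and Ldha, the lactate enzyme, at 432, 487 and 807 against 288, 174 and 186. Neither overlapped, and both stayed called under the thinned rule, at 0.70 and 0.46. Slc2a3, a glucose carrier, was the lower one (-0.98), but was 0.14 in B-restricted sets. Immediate early genes, which dissociation can induce, were lower in 12 of 14 cases and higher in none (all 14 lower in B-restricted sets), with Jund at 1426, 792 and 780.0 against 4036, 3208 and 4762 CPM. The part of dissociation in these differences was not tested. Of p53 and damage response genes 2 of 13 were higher, among them the replication checkpoint kinase Chek1 (4.11), and 6 were lower, among them Trp53inp1 (-2.17).

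**Figure D3:**
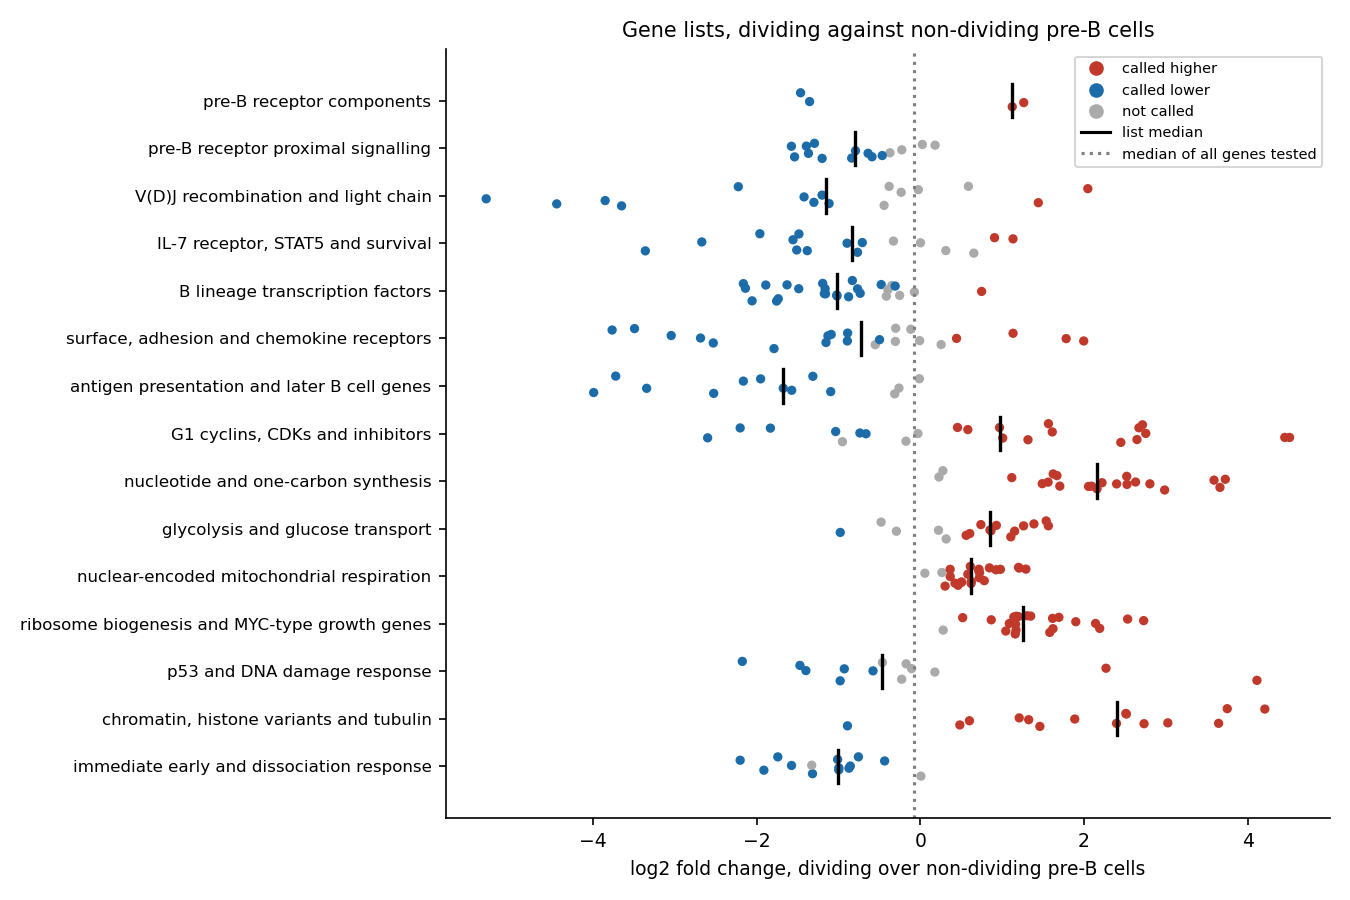
Log2 fold change of dividing over non-dividing pre-B cells for each gene of the fixed lists (x axis), 1 row per list, coloured by call. The replication and mitosis lists are not drawn. Bars mark list medians and a dotted line the median of all genes, -0.08. Of the lists drawn, the chromatin and nucleotide lists have the medians farthest right (2.40 and 2.16). Later B cell, recombination and transcription factor genes lie mostly left of 0.

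Among genes outside the lists at 50 CPM or more, and leaving out those that also rose with division in neutrophil precursors, Nrgn had the largest increase. It encodes neurogranin, a calmodulin-binding protein best known from neurons. Nrgn was at 171, 161 and 224 CPM in dividing cells and 2.14, 4.89 and 6.74 in non-dividing cells, with a change of 5.32 ± 0.19 (edgeR adjusted p = 7.69e-07) and of 2.31 under the thinned rule. A UMI of Nrgn was found in 24.5% ± 6.58 of thinned B-restricted members, 0.872% of non-dividing cells, 3.06% of dividing Dntt cells and 0.146% of dividing neutrophil precursors. Impa2 (2.34), Gcsh (2.25) and Fabp5 (1.87) were also higher. The myeloid genes Clec12a (1.93) and Ly6c2 (1.72) were higher by the rule, but were -1.42 and -0.97 in B-restricted sets.

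Lower genes outside the lists included Tmem163, a zinc transporter, at 3.91, 5.05 and 2.76 CPM in dividing and 91.0, 117 and 123 in non-dividing cells, and Col5a3, a collagen chain, at 3.63, 3.49 and 4.24 against 83.5, 77.4 and 111. Fcmr, the IgM Fc receptor, changed by -4.31 ± 0.26, and Rgs16, Reln, Cacna1e and Lynx1 lay between -4.77 and -3.91. None of the libraries overlapped for these genes.

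The second comparison set the dividing pre-B cells against 735 dividing Dntt cells (76, 301 and 358), which meet the same rule except that they have a UMI of Dntt, and so asks how dividing B precursors differ by stage. Their median depths, 11712, 15015 and 14179.5 UMIs, were nearer to those of the members. Heavy and light chain transcripts were higher in the dividing pre-B cells and surrogate light chain, Rag and early progenitor genes were lower. Of 10942 genes, 14.4% were called, 6.68% higher and 7.71% lower, with a median of -0.01, and in B-restricted sets 28.2% of 10219 were called, 14.1% each way. Calls numbered 1575, but 191 without library 3 and 266 without the block. Both comparisons use the same dividing pre-B sums.

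Igll1 was at 216, 223 and 396 CPM in dividing pre-B and 999.7, 977 and 1392 in dividing Dntt cells, a change of -1.99 ± 0.08 (edgeR adjusted p = 9.41e-05). Vpreb1 was at 1483, 1455 and 1348 CPM in dividing Dntt cells and changed by -2.44 ± 0.09 (edgeR adjusted p = 5.61e-05), and Vpreb2 by -2.56 ± 0.15. For each of the 3 genes all pre-B values lay below all Dntt values, so for Igll1 and Vpreb1 the dividing pre-B cells stood between the other sets. A thinned UMI of Igll1 was seen in 87.3% ± 4.12 of dividing Dntt cells. Ighm was higher than in Dntt cells, by 0.73 ± 0.06 (edgeR adjusted p = 7.08e-04), and Igkc was at 3756, 3795 and 708 CPM against 95.7, 59.5 and 23.5, a change of 5.47 ± 0.22 (edgeR adjusted p = 9.94e-05) and of 4.21 in B-restricted sets. Ighm lost its call without the block (adjusted p = 0.133). Vpreb3 differed by -0.27 ± 0.06, but by 0.07 in B-restricted sets, where it was not called. Vpreb3 is a B marker that sets these sets, so its value there is partly fixed by the choice. Of the 5 receptor genes 1 was higher and 4 lower, and 3 were lower in B-restricted sets.

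Rag1 was at 19.5, 14.5 and 7.07 CPM against 64.5, 44.7 and 18.4, ranges that overlap at the edge. Rag1 was lower in each library of the pre-B set, by a log2 fold change of -1.51 ± 0.11 (edgeR adjusted p = 5.41e-04). Rag2 changed by -1.44 ± 0.16 (edgeR adjusted p = 0.00304). Without the block neither passed, with adjusted p = 0.222 and 0.113, and Rag2 was also lost without library 3 (0.0916). Rag1 was called lower in dividing pre-B cells in both comparisons. Il7r, by contrast, was slightly higher than in Dntt cells (0.40 ± 0.06 (edgeR adjusted p = 0.00923)), a call lost without library 3 (0.167) and without the block (0.363).

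Of 15 signalling genes 5 were higher and 5 lower, and 6 and 5 in B-restricted sets. Higher were Blk, a Src-family kinase of B cells, at 83.2, 72.2 and 77.3 CPM against 17.1, 11.7 and 13.03, a change of 2.59 ± 0.10 (edgeR adjusted p = 8.28e-05), the inhibitory co-receptor Cd22 (3.09 ± 0.30) and Lyn (1.14 ± 0.08). Lower were the adaptor Blnk (-1.22 ± 0.09), Fyn (-1.45 ± 0.12) and Pik3cd (-0.76 ± 0.10). Without library 3 the calls of Cd22, Fyn and Pik3cd were lost, with adjusted p of 0.0691, 0.0600 and 0.104, and that of Pik3cd also without the block (0.340). Of 17 interleukin-7 and survival genes 1 was higher and 4 lower, and 3 and 7 in B-restricted sets. Lower were the STAT5 targets Cish (-2.58 ± 0.35) and Socs2 (-0.99 ± 0.12). Both of these were lost without library 3 (adjusted p = 0.146 and 0.0765), and Socs2 also without the block (0.251).

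Of 27 transcription factors, 10 were higher and 8 lower, and in B-restricted sets 15 and 8 of 26. Ikzf3 was at 27.4, 24.0 and 21.0 against 3.02, 3.19 and 1.47 CPM, a change of 3.32 ± 0.21 (edgeR adjusted p = 3.84e-04). Spib (1.75 ± 0.09) and Bach2 (1.66 ± 0.10) were higher too, though the Bach2 call was lost without the block (adjusted p = 0.117). Erg, a progenitor factor, was at 0.559, 3.34 and 4.69 against 23.2, 62.7 and 65.3 CPM, a change of -4.01 ± 0.16 (edgeR adjusted p = 9.94e-05), and Bcl11a (-1.58 ± 0.09) and Lef1 (-1.49 ± 0.09) were also lower. By its mean, Lef1 was highest in Dntt cells and lowest in non-dividing cells.

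Among 23 surface genes 7 were higher and 6 lower, and 6 and 8 in B-restricted sets. Cd2 (3.35 ± 0.27), Il2ra (2.91 ± 0.32) and Cd38 (2.03 ± 0.20) were higher, and the cytokine receptor Flt3 (-2.89 ± 0.32) and Bst1 (BP-3, -1.42 ± 0.12) lower. Without library 3 the adjusted p of Il2ra and Cd38 were 0.0717 and 0.0736. The class II activator Ciita was higher by 3.00 ± 0.41, H2-Aa by 2.51 ± 0.25 and H2-Eb1 by 2.13 ± 0.26, and none of these held without library 3 (adjusted p = 0.104, 0.0675 and 0.101). H2-Aa and H2-Eb1 were also lost without the block (0.182 and 0.251). Macrophage marker C1qa (2.68 ± 0.33) moved with them, was lost under the same settings (0.0871 and 0.256), and its part was not tested.

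Other genes outside the 17 lists also differed. Fcrla, an Fc receptor-like protein of the endoplasmic reticulum and 1 of the 5 markers that set the B-restricted members, was at 203, 284 and 226 CPM against 15.1, 18.8 and 16.3, with 3.89 ± 0.08 (edgeR adjusted p = 1.67e-05). Nrgn was at 32.2, 20.4 and 33.2 CPM in dividing Dntt cells and higher in dividing pre-B cells by 2.82 ± 0.10 (edgeR adjusted p = 5.61e-05), so that it peaked in the dividing pre-B set. Myl4, a myosin light chain, was at 506, 512 and 444 against 113, 68.8 and 54.7 CPM, higher by 2.78 ± 0.15. In the other direction stood Arpp21 at 2.51, 3.27 and 4.43 against 107, 99.2 and 118 CPM, with -4.85 ± 0.12 (edgeR adjusted p = 2.00e-05). Rnase12 (-4.85 ± 0.28), Myl10 (-4.42 ± 0.19), the adhesion receptor Adgrg1 (-2.83 ± 0.09), Gfra2 (-2.58 ± 0.15) and Tbc1d10c (-2.32 ± 0.07) were lower as well. For each of these 9 genes the sets did not overlap.

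Some of the largest differences came from markers of other cells. Jchain, of plasma cells, was at 224, 422 and 6.04 CPM in the members by the rule, and 9 barcodes held at least 10 UMIs. Its call was lost without the block (adjusted p = 0.0588), and it was not testable in B-restricted sets. Bglap2, an osteoblast gene, was at 0.279, 14.6 and 487 CPM in the members and 0, 0.709 and 38.3 in dividing Dntt cells, highest in library 3 in both, and was not called without the block (adjusted p = 0.540). The connective tissue list summed to 1148, 1130 and 4365 CPM in the members, to 1420, 1726 and 5960 in B-restricted members, and to 105, 192 and 2355 in dividing Dntt cells. Comp (2.40) and Cytl1 (3.11), of cartilage, moved with it. Both were lost without library 3 (adjusted p = 0.131 and 0.190) and without the block (0.236 and 0.330), and Cytl1 also without library 2 (0.0631). Their part in the other differences was not tested.

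**Figure D4:**
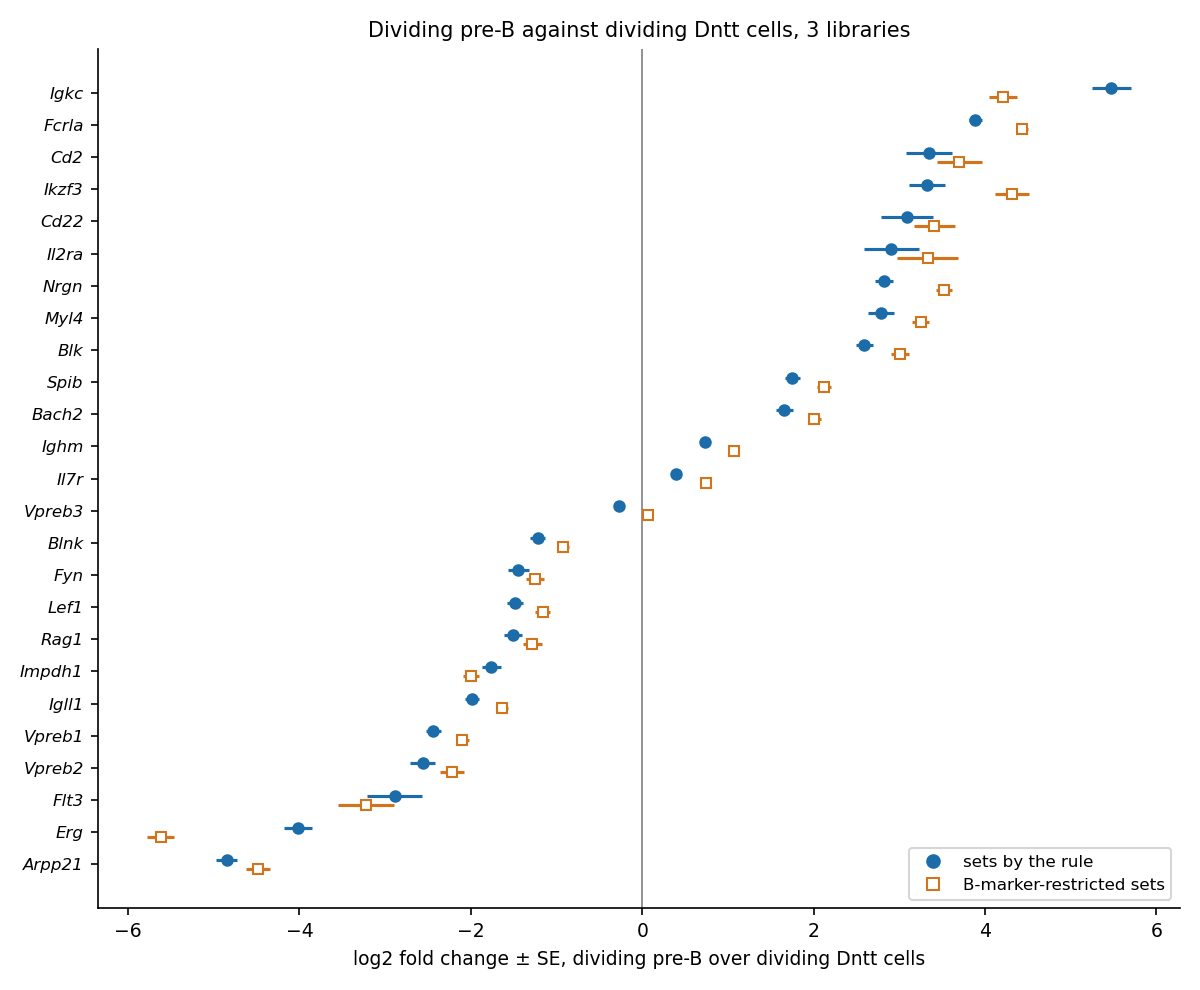
Log2 fold change ± SE of dividing pre-B over dividing Dntt cells for genes named in the text (x axis), circles for sets by the rule and squares for B-restricted sets, 3 libraries. Igkc and Fcrla lie right of 0 and Igll1, Vpreb1, Arpp21 and Erg left of it, with Ighm in between on the right.

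Few division genes were called between the 2 dividing sets by the rule, and more in B-restricted sets. Of 43 replication genes 1 was higher and 1 lower, and of 52 mitosis genes 1 was higher and 3 lower, but in B-restricted sets 15 and 18 were higher with 1 and 2 lower. Both sets were chosen by division genes, so these counts are a description. B-restricted members were also shallower, with medians of 6676, 8003 and 8085 UMIs over all genes against 11569, 13974 and 13441 in B-restricted Dntt cells. The part of depth was not tested. Thymidylate synthase Tyms changed by -0.80 ± 0.06, Pimreg by -1.33 ± 0.07 and the purine enzyme Impdh1 by -1.76 ± 0.11. Of 21 nucleotide genes 6 were lower and none higher, and 7 were lower in B-restricted sets. Of 22 ribosome biogenesis genes 6 were lower and none higher, and 12 were lower in B-restricted sets. Among G1 regulators, with 5 higher and 3 lower of 23 (10 and 4 in B-restricted sets), Btg1 was higher by 0.77 ± 0.06 and the CDK inhibitor Cdkn1a changed by -0.97 ± 0.08. Without the block neither was called (adjusted p = 0.530 and 0.0635), and Cdkn1a was also lost without library 3 (0.0555).

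The last comparison asked whether the change with division in pre-B cells differed from that in neutrophil precursors, using 2604 dividing and 683 non-dividing barcodes with a UMI of Cebpe and of Fcnb and none of Cd79a or Cd79b. The interaction was called for 19.6% of 10956 genes, 9.18% more positive and 10.4% more negative in pre-B cells, with a median of -0.16 (and -0.02 with RLE size factors). Calls numbered 2144, but 592 without the block and 710 without library 3. Applying the rule after thinning left 481 of them called in the same direction and 288 in the opposite one, so only genes called the same way under it are described. CPM values do not carry the TMM factors by which edgeR scales the sums, which were 0.559 to 0.649 for non-dividing and 0.843 to 0.887 for dividing neutrophil precursors.

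Of 18 glycolysis genes 13 were more positive in pre-B cells and none more negative, with a median of 1.17. In B-restricted sets, where 18% of 10781 genes were called, 6.56% more positive and 11.5% more negative, this was 9 of 17, and under the thinned rule 6 with 3 more negative. Ldha was at 432, 487 and 807 CPM in dividing and 288, 174 and 186 in non-dividing pre-B cells, and at 466, 374 and 450.4 in dividing and 817, 465 and 547 in non-dividing neutrophil precursors. It was thus higher with division in pre-B cells and lower in neutrophil precursors, and the difference of the changes was 2.47 ± 0.32 (edgeR adjusted p = 9.55e-04). Gapdh was at 1513, 1357 and 1871 in dividing and 1522, 1313 and 1769 CPM in non-dividing neutrophil precursors, where its change with division, scaled by edgeR, was -0.44 ± 0.09 (adjusted p = 0.00308, and 0.129 without the block). It was higher with division in pre-B cells, and the difference of the changes was 1.99 ± 0.17 (edgeR adjusted p = 2.08e-04). Pgk1 differed by 1.59 ± 0.20 (edgeR adjusted p = 9.06e-04).

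G1 regulators differed gene by gene. Cdk6, the kinase partner of the D cyclins, was at 177, 86.5 and 136 against 43.9, 14.7 and 16.8 CPM in pre-B cells and at 79.6, 34.3 and 52.4 against 22.9, 10.5 and 12.5 in neutrophil precursors, dividing first. It was higher with division in both, by 1.28 ± 0.25 (edgeR adjusted p = 0.00698) more in pre-B cells. Ccnd3 was at 173, 297 and 346 and 130.0, 267 and 324 CPM in neutrophil precursors, ranges that overlap, and differed by 1.26 ± 0.17 (edgeR adjusted p = 0.00109). The replication factor E2f1 differed by 1.63 ± 0.27 (edgeR adjusted p = 0.00313). Cdkn1b was at 17.0, 34.9 and 29.2 and 11.8, 35.9 and 27.1 CPM in neutrophil precursors, again overlapping, and the difference of the changes was -1.48 ± 0.19 (edgeR adjusted p = 9.68e-04). For Btg1, lower with division in both lineages, it was -0.97 ± 0.17 (edgeR adjusted p = 0.00424). Without the block Ccnd3, Cdk6, Cdkn1b and Btg1 were not called, with adjusted p of 0.184, 0.294, 0.142 and 0.605, and Cdk6 was also lost without library 3 (0.0522).

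Within the dividing pre-B cells the surrogate light chain split the set. After thinning B-restricted members to 2000 UMIs, a UMI of Igll1, Vpreb1 or Vpreb2 was found in 69, 208 and 344 cells of libraries 1, 2 and 3, or 30.1%, 30.2% and 46.6%. Cells with one had more RNA counted, with medians of 15802, 16730.5 and 16594.5 UMIs against 5773, 7095 and 5916, so depth goes with the split. The genes below were chosen after their values were seen and are given without a test.

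Igkc was at 398, 426 and 345 CPM in the cells with a surrogate light chain UMI and 1776, 1507 and 1472 in those without. The sets did not overlap, and a thinned Igkc UMI was found in 50.7%, 54.3% and 46.5% of the cells with a surrogate light chain and in 93.1%, 88.1% and 88.3% of the others. Nrgn ran the other way, at 404, 339.5 and 410.3 CPM in the cells with a surrogate light chain UMI and 102, 152 and 179 in those without. Rag1 averaged 3.50 ± 1.57 against 35.1 ± 14.4 CPM, with and without a surrogate light chain UMI, Il7r 139 ± 5.23 against 264 ± 3.63, Il2ra 3.23 ± 1.15 against 17.8 ± 6.40 and Cd2 3.44 ± 0.831 against 35.8 ± 9.66. Spib (68.2 ± 18.8 against 216 ± 57.1) and Ighm (1668 ± 329 against 2561 ± 455) were likewise lower with the surrogate light chain.

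Some genes were higher with it. Ccnd2, a D cyclin, averaged 153 ± 45.7 against 34.3 ± 14.8 CPM, Cdk6 181 ± 50.4 against 60.6 ± 27.0, Lef1 120.3 ± 28.8 against 51.4 ± 5.97 and Ldha 879.8 ± 273 against 260.0 ± 85.6, and each was higher in 3 of 3 libraries. Ccnd3 (588 ± 145 against 559.6 ± 181), Cd24a (1537 ± 98.6 against 1529.7 ± 193) and the replication clamp Pcna (403 ± 55.5 against 411 ± 42.9) differed by less than the SD. Mki67 and Top2a, of the rule, were lower with it, at 454 ± 55.4 against 802 ± 145 and 509.7 ± 37.4 against 899.8 ± 97.1 CPM. The rule asks for UMIs of division genes at any depth, so cells with fewer UMIs tend to need a higher level to meet it. The values for these rule genes are therefore a description, and the part of the rule was not tested.

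**Figure D5:**
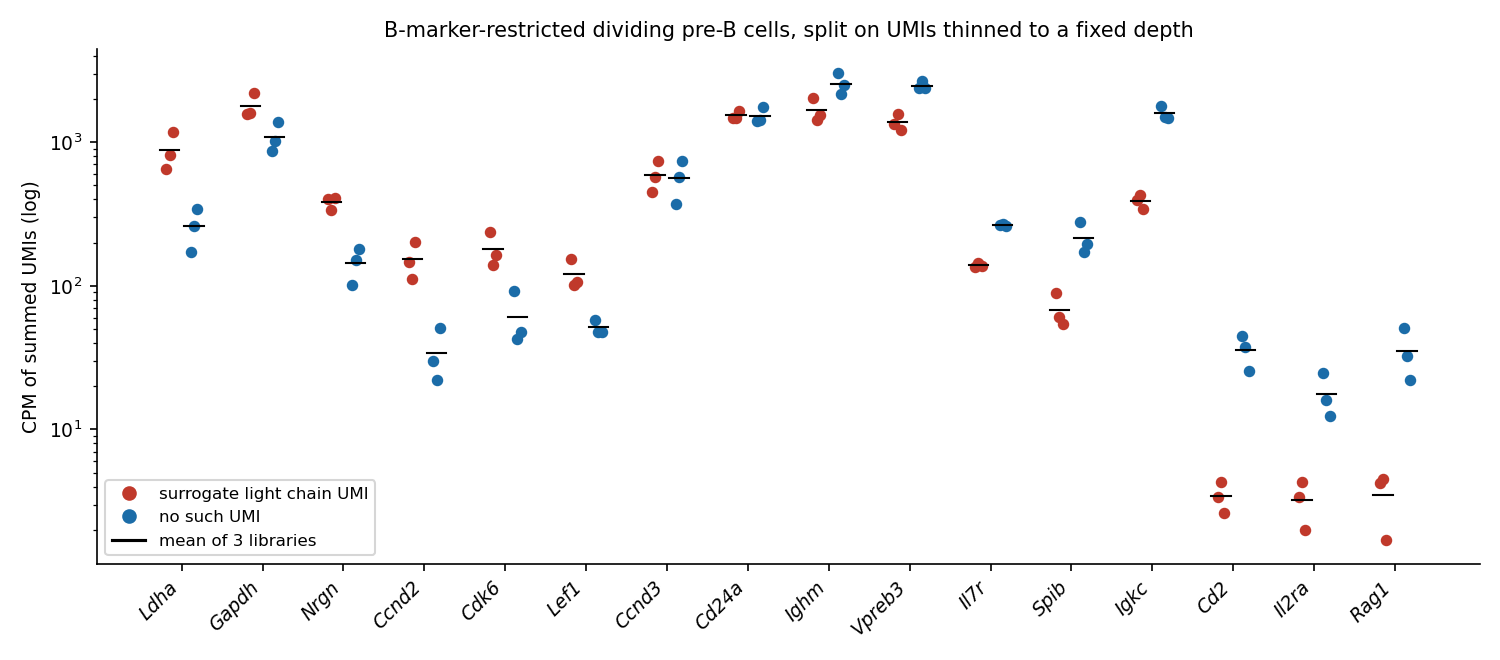
Level (CPM of summed UMIs, log scale) of genes in B-restricted dividing pre-B cells with and without a surrogate light chain UMI after thinning to 2000 UMIs, 1 point per library, bars for means of 3 libraries. Igkc, Il7r, Rag1 and Cd2 are higher without it, and Nrgn, Ccnd2, Cdk6 and Ldha higher with it, in all 3 libraries.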

How the data were processed

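The authors deposited filtered matrices of UMI counts per gene and barcode, without normalization, per the file headers. Cell Ranger 3.0.2, Seurat 4 and the build mm10 are listed in the submitters' processing notes with no role given, and the headers give version 3.0.1 in library 1 and 6.0.0 in the others. The 30406 gene IDs shared by all libraries were used. Python 3.11.15 summed UMIs per library and cell set, and edgeR 4.0.16 in R 4.3.3 tested them (quasi-likelihood, filterByExpr, TMM, Benjamini-Hochberg), and the library was a block, since its sums share 1 pool by the labels. Deviations of same-library sums correlated at 0.480 to 0.812. SE is the absolute log2 fold change over the square root of F. DESeq2 1.42.0 and RLE scaling, other barcode limits, Scrublet, a rule on thinned UMIs and leaving out libraries were alternatives. The scripts were tested on counts simulated at a dispersion of 0.05, which was not fitted to these data. The recovery rates below hold for that setting. In the data, smaller changes were called too, such as Ccnb2 at 0.33 against dividing Dntt cells. Against non-dividing cells, 35.8% of log2 changes of 1 and 97.8% of changes of 2 were recovered. Against dividing Dntt cells these were 44.3% and 97.9%, and in the interaction 6.19% and 62.6%. A gene not called is thus not shown to be unchanged.

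The members and the 17 gene lists were chosen with earlier results of these data known. Genes were named by rule. The 10 largest and 10 smallest changes came from called genes at 50 CPM or more with the same direction in 3 of 3 libraries. For the interaction, 8 each way were taken. Up to 3 called list members each way were added. Rule, ribosomal, mitochondrial, haemoglobin and unnamed-model genes were left out. So were genes that rose with division in neutrophil precursors, among the largest changes against non-dividing cells but not among list members. The text names part of the genes so chosen. Rag2, Igkc, Il7r, Ccnd2 and Ccnd3 against non-dividing cells were outside this rule and chosen after their values were seen. A gene of the B marker and signalling lists is not reported here by name and stays in their sums and counts. Depth per barcode limits the precision of every level, and doublets were not removed. Positions are GENCODE vM21.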

Additional observations from a re-analysis of the deposited data

Results flagged for a closer look

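The change with division was larger or smaller in pre-B cells than in neutrophil precursors, by an interaction test in edgeR over 3 libraries, for 27 genes named here. Each value is the change in pre-B cells minus that in neutrophil precursors on the log2 scale. Under the rule applied to thinned UMIs the following were called in the same direction: Ldha 2.47, Gapdh 1.99, Pgk1 1.59, E2f1 1.63, Cdk6 1.28, Ccnd3 1.26, Ada 2.57, Lmnb1 2.56, Hmgn2 1.86, Hmgb2 1.88, Ccnb2 2.14 and Cox5a 0.69. So were Ighm at -1.67, Cdkn1b at -1.48, Btg1 at -0.97, Atp1b1 at -5.74 and Foxp1 at -1.96. Hmgb2 and Ccnb2 are division genes and Ada, a purine enzyme, stood at 42.5, 55.7 and 61.1 and 34.6, 52.4 and 56.6 CPM in dividing and non-dividing neutrophil precursors. For Lmnb1, library 1 of the non-dividing neutrophil precursors was far above the other 2, at 634, 37.0 and 46.1 CPM, and its call was lost without library 3 (adjusted p = 0.106).

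Others were not called, or turned, under the thinned rule. Nrgn at 5.37, Tnc at -6.09, Foxo1 at -2.07 and Tcf3 at -1.93 kept their sign and were not called there. Igll1 at 3.28, Vpreb1 at 2.35, Lmo1 at 2.60, Olr1 at 2.48, Mogat2 at 2.48 and Ezh2 at -1.61 changed sign there. Igll1 was at 0.213, 1.20 and 1.84 and 0, 1.14 and 4.07 CPM in neutrophil precursors, near the level of single UMIs. Mogat2 stood higher in dividing neutrophil precursors, at 45.9, 43.7 and 62.0 CPM, than in dividing pre-B cells, at 10.9, 5.49 and 11.5. Without library 3 the calls of Cox5a, Nrgn, Igll1, Vpreb1 and Mogat2 were lost, with adjusted p of 0.0795, 0.0824, 0.162, 0.0846 and 0.0743.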

How the results depend on the processing

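The share of kept barcodes, 7.34%, was 4.79% with the rule on thinned UMIs and 4.04% without barcodes holding UMIs of other lineages, and lay between 6.46% and 8.62% when a library was left out. Against non-dividing cells, 5830 calls became 3679 with no replicate block and 4098 to 5879 without 1 library. Against dividing Dntt cells, 1575 calls became 266 with no replicate block, 2543 without barcodes holding UMIs of other lineages, 2885 in B-restricted sets, and 191 to 1736 without 1 library, the lowest without library 3. For the difference from neutrophil precursors, 2144 calls became 592 with no replicate block and 710 to 1557 without 1 library, with 1214 without library 2 and 710 without library 3; the more positive calls were 46.9% of them, against 61.7% with RLE, 66.4% with DESeq2 and 63.1% under the thinned rule, but 29.3% without barcodes holding UMIs of other lineages and 36.4% in B-restricted sets. Other settings stayed within 1.5 times. Of 175 log2 values named, 124 kept their call without the block and 51 lost it. The sign turned under the thinned rule against non-dividing cells for Vpreb2 (-0.14), Il7r (0.02), Ccnd2 (-0.09), Clec12a (-1.55) and Ly6c2 (-1.25), against dividing Dntt cells for Vpreb3 (0.06), and in the third comparison for Igll1 (-0.69), Vpreb1 (-0.65), Lmo1 (-0.24), Olr1 (-0.78), Mogat2 (-1.20) and Ezh2 (1.07). Without barcodes of other lineages it turned for Clec12a (-2.34), Ly6c2 (-1.18), Vpreb3 (0.18), Cytl1 (-0.56), Aldoa (-0.23), Olr1 (-1.05) and Mogat2 (-2.40). In B-restricted sets it turned for Clec12a (-1.42), Ly6c2 (-0.97), Vpreb3 (0.07), Slc2a3 (0.14) and Olr1 (-0.08), and without barcodes scored highest by Scrublet for Slc2a3 (0.01). The cause was not tested. Non-dividing cells have fewer UMIs than members, and low genes such as Kit or Cish rest on few counts.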
